A study of Mus musculus with 10 samples.

Results

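The 9 genes described here encode 7 CC chemokines (Ccl2, Ccl6, Ccl7, Ccl8, Ccl9, Ccl11 and Ccl12) and 2 chemokine receptors of monocytes and macrophages (Ccr2 and Cx3cr1). They were taken by symbol from the 23303 gene entries of an expression table of mouse heart, and all 9 have an entry of their own. The table covers 10 left ventricles of male 129X1/SvJ mice, 1 library per mouse, 5 with the surgery label CKD (chronic kidney disease) and 5 with the label Sham. The labels give neither the operation that produced kidney disease nor the age of the mice or the time since surgery, and they name no transgene or drug in either group. Values are FPKM, fragment numbers corrected for the length of the transcript and the size of the library, so levels can be compared between genes of different length.

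Chemokines are small secreted proteins that bind to receptors on leukocytes and steer their migration. Ccl2, Ccl7 and Ccl12 act on Ccr2, the receptor that brings Ly6C-high monocytes out of the bone marrow and into tissue. Mouse Ccl8 acts mainly on Ccr8, Ccl11 (eotaxin) acts on Ccr3 of eosinophils, and Ccl6 and Ccl9 act on Ccr1. Cx3cr1 is the receptor for the membrane-bound chemokine Cx3cl1 and is carried by patrolling monocytes and by many resident macrophages. In the heart, Ccr2 separates macrophages that come from blood monocytes from those that renew in place.

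The genes lie on chromosomes 9 and 11 (GRCm38.p6). Ccl2, Ccl7, Ccl11, Ccl12 and Ccl8 lie on the plus strand of chromosome 11 in that order, over 81.2 kb from the start of Ccl2 (82035577 to 82037452) to the end of Ccl8 (82115185 to 82116799). Between them lie Ccl7 at 82045712 to 82047525, Ccl11 at 82057832 to 82062955 and Ccl12 at 82101845 to 82103399. Ccl9 (83572917 to 83578636) and Ccl6 (83587886 to 83593087) lie 1456 kb further along the same chromosome, on the minus strand, with 9.25 kb between them. Both receptors are on chromosome 9, Cx3cr1 on the minus strand at 120048683 to 120068296 and Ccr2 on the plus strand at 124101918 to 124109140. No pair among the 36 pairs of members shared a stretch of 100 bases, the read length, with 5 or fewer mismatches in their transcripts, and the longest identical run was 25 bases, between Ccl6 and Ccl9.

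RefSeq start-site windows (GRCm38.p6) were at hand for Ccl6, Ccl8, Ccl9, Ccl12, Ccr2 and Cx3cr1. The 250 bases upstream of 2 pairs of neighbours whose transcripts were higher in CKD are printed here, Ccl12 (chr11:82101595-82101844, plus strand) with Ccl8 (chr11:82114935-82115184, plus strand) and Ccl9 (chr11:83578637-83578886, minus strand) with Ccl6 (chr11:83593088-83593337, minus strand). Capitals mark every match to the motifs searched, on either strand, and the last base of each line is the one before the transcript's first base.
Ccl12: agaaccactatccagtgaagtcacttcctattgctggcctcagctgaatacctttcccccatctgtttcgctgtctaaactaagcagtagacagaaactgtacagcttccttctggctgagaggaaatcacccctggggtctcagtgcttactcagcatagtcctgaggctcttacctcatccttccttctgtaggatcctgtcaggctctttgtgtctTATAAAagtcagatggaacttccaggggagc
Ccl8: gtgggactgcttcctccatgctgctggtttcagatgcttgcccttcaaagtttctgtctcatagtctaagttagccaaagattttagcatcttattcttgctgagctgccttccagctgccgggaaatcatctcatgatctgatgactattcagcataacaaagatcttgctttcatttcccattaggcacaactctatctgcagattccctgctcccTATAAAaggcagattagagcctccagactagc
Ccl9: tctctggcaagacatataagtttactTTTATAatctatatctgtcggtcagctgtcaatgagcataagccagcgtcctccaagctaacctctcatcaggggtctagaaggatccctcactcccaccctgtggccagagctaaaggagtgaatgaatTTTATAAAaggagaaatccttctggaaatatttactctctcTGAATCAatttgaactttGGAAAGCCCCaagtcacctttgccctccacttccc
Ccl6: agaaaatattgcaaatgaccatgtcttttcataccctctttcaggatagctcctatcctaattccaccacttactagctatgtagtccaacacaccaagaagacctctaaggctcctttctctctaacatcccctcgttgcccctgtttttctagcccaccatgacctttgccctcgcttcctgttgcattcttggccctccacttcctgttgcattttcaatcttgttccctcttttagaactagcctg
Motifs were searched on both strands of the whole windows, which hold 250 bases before the start and 50 after it. The share of matches was taken over 32851 mouse windows of that length, 300 bases. Ccl12 and Ccl8 each held 1 TATA box (TATAAA), starting 31 and 32 bases before the transcript, and no other match. A TATA box was found in 13.6% of all windows, and it was added to the search after the sequences had been seen. Ccl9 held TATA boxes at 92 bases before the start and, on the other strand, at 94 and 224, of which the first pair overlap. It also held an AP-1 match at 53 bases before the start. The AP-1 letters were TGANTCA, present in 7.81% of windows. An NF-kB match lay at 35 bases on the other strand of Ccl9, and that motif occurred in 8.46% of windows. The signal-responsive STAT motifs were sought as GAS, written TTCNNNGAA and present in 8.30% of windows. The STAT6 form with one more free base, TTCNNNNGAA, was in 6.95%. The interferon-stimulated response element was sought as GAAANNGAAA and was in 3.44%. The C/EBP motif TTNNGCAA was in 10.8%. None of these last 4 motifs occurred in the windows of the 6 genes. No motif of any kind was matched in the windows of Ccl6, Ccr2 or Cx3cr1. For Ccr2 the 250 bases before the window's start site (chr9:124101933-124102182) lay inside the gene's span, which starts at 124101918. They are therefore not upstream of the gene as placed above. The 250 bases before each window's start site were also aligned in pairs over their full length, with gaps allowed. Identical bases made up 58.0% of the 250 for Ccl12 and Ccl8 and 50.4% for Ccl6 and Ccl9. The other 13 pairs of the 6 genes gave 45.6% to 54.8%.

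The 10 libraries were alike in summed FPKM (570509 to 605007) and in the number of genes above 0 (15467 to 15832). CKD 1 and Sham 1, 1 library from each group, stood apart from the other 8. The 10 most abundant genes took 14.8% and 15.3% of the FPKM total in those libraries against 17.6% to 18.2% in the others. Among genes at low level, 27.2% to 32.0% kept a single ratio between any pair of the other 8 libraries, but 2.73% to 4.69% between CKD 1 or Sham 1 and one of the 8, so the scale per gene differed. Results are therefore also given without both of these libraries. Of the 11651 genes with a mean of at least 1 FPKM, 369 were higher in CKD (3.17%) and 247 lower (2.12%) at an adjusted p under 0.05, in limma's moderated test on log2(FPKM + 0.5), adjusted over these genes by the Benjamini-Hochberg method. All adjusted p-values below are from that test unless another is named.

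Of the 9 genes, 8 reached the mean of 1 FPKM and were tested. Among these, 4 rose in CKD (Ccl12, Ccl8, Ccl6 and Ccl9), 1 fell (Ccl11) and 3 did not pass (Ccl2, Ccl7 and Cx3cr1). Ccr2, with a mean of 0.960 FPKM, was below the filter and was tested alone by exact permutation of the 10 mice. The median log2 change over all 9 genes was 0.72, against -0.00345 over all genes tested. In 4 of the 9 genes every CKD value lay above every Sham value, and in 1 every CKD value lay below. Over all genes tested the corresponding shares were 4.1% and 3.18%. The tissue was whole ventricle, so more or fewer cells of a type and more or less RNA per cell cannot be told apart in any of these values.

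**Figure D1:**
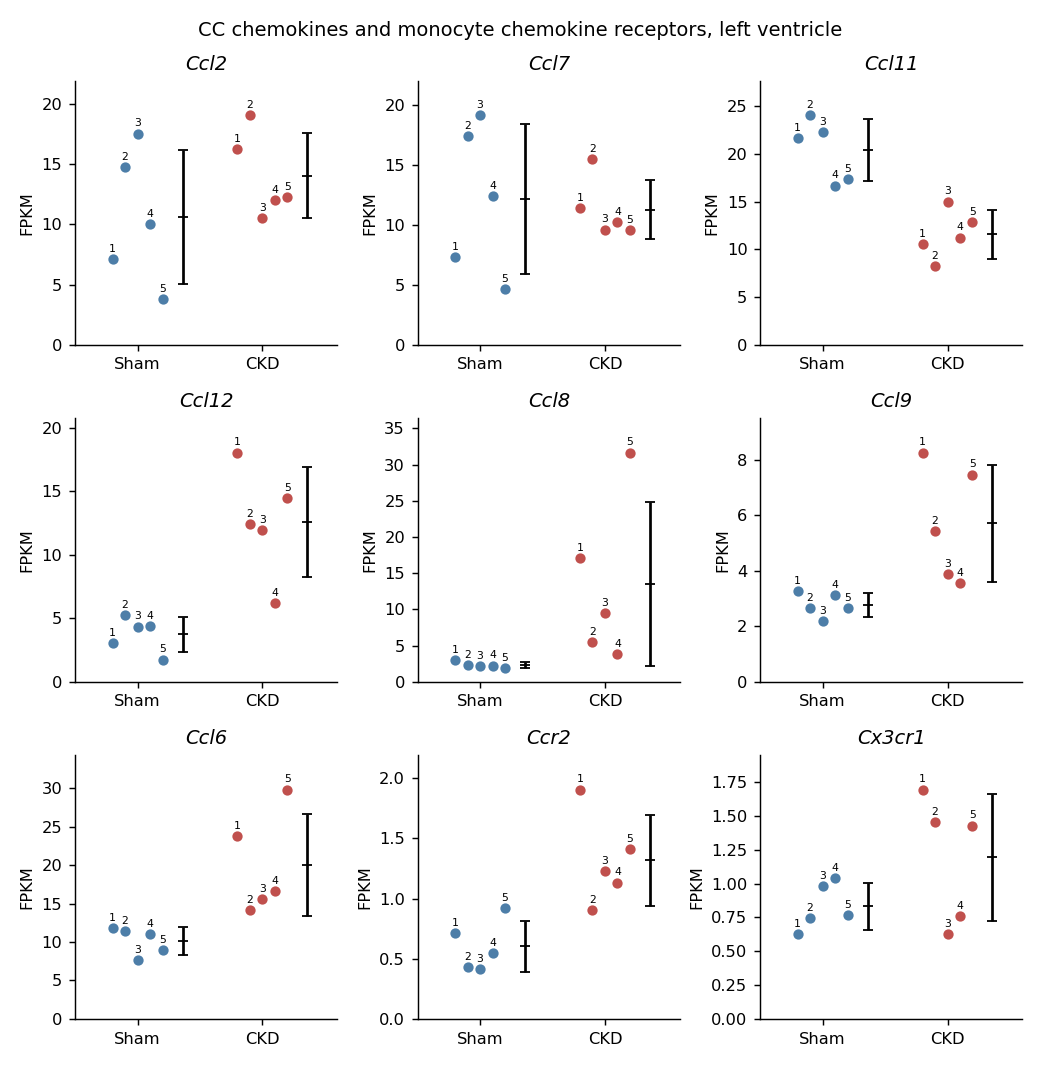
FPKM of the 9 genes (vertical axes, each starting at 0) in 5 Sham (blue) and 5 CKD (red) ventricles, numbered by library, with the mean and SD of each group as black bars. Ccl12, Ccl8, Ccl9 and Ccl6 lie wholly higher in CKD and Ccl11 wholly lower, while the groups overlap for Ccl2 and Ccl7.

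Ccl12, a Ccr2 ligand found in rodents (also called MCP-5), rose 3.07-fold. The Sham libraries 1 to 5 held 3.05, 5.26, 4.34, 4.41 and 1.74 FPKM, and the CKD libraries 1 to 5 held 18.1, 12.4, 11.9, 6.18 and 14.5 FPKM. The lowest CKD value, in CKD 4, was above the highest Sham value, and CKD 1 was the highest of all. The means were 3.76 ± 1.38 and 12.6 ± 4.33 FPKM (SD, n = 5 each), and the log2 change was 1.62 (SE 0.29, adjusted p = 0.00799). Ccl12 remained called in all 22 alternatives run, with a log2 change of 1.43 and an adjusted p of 0.0394 without CKD 1 and Sham 1.

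Ccl8, the Ccr8 ligand next to Ccl12 in the cluster, had the largest fold change of the 9 genes and the widest spread. Its Sham values were 3.02, 2.28, 2.21, 2.25 and 1.89 FPKM, and its CKD values were 17.1, 5.49, 9.44, 3.79 and 31.7 FPKM. The Sham values were close together, whereas the highest CKD value, in CKD 5, was 8.36 times the lowest, in CKD 4. The groups did not overlap, and the means were 2.33 ± 0.418 and 13.5 ± 11.4 FPKM (SD, n = 5 each). The fold change was 3.83 (95% confidence interval 1.97 to 7.45) and the log2 change 1.94 (SE 0.44, adjusted p = 0.0263). The adjusted p was 0.0740 without CKD 1 and Sham 1, 0.0509 without CKD 1, 0.0542 without CKD 3, and 0.0578, 0.0641 and 0.0588 without Sham 2, Sham 3 and Sham 4.

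Ccl2 (MCP-1), the best known Ccr2 ligand, did not pass the test. It was at 7.13, 14.8, 17.5, 10.04 and 3.797 FPKM in Sham and at 16.3, 19.1, 10.5, 12.02 and 12.3 FPKM in CKD. The groups overlapped, with CKD 2 alone above every Sham value, and the Sham mice differed by 4.62 times between Sham 3 and Sham 5. The means were 10.7 ± 5.57 and 14.0 ± 3.53 FPKM (SD, n = 5 each). The log2 change was 0.52 (SE 0.33, 95% interval -0.20 to 1.24, adjusted p = 0.430), so a rise of up to 2.37-fold lay within the interval.

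Ccl7 (MCP-3), which binds Ccr2 and other receptors, did not pass either. Its values were 7.30, 17.4, 19.2, 12.4 and 4.64 FPKM in Sham and 11.4, 15.5, 9.61, 10.2 and 9.57 FPKM in CKD. The Sham mice stood in the same order as for Ccl2, from Sham 3 at the top to Sham 5 at the bottom, and all CKD values fell inside the Sham range. With means of 12.2 ± 6.26 and 11.3 ± 2.47 FPKM (SD, n = 5 each), the log2 change was 0.04 (SE 0.32, 95% interval -0.66 to 0.74, adjusted p = 0.971).

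Ccl11, eotaxin, lies in the same cluster and fell. The Sham values were 21.7, 24.0, 22.3, 16.7 and 17.4 FPKM, and the CKD values were 10.6, 8.22, 15.0, 11.2 and 12.8 FPKM. The highest CKD value, in CKD 3, was below the lowest Sham value, in Sham 4. The means were 20.4 ± 3.22 and 11.6 ± 2.54 FPKM (SD, n = 5 each), a fold change of 0.573 (log2 change -0.80, SE 0.15, adjusted p = 0.00944). Ccl11 remained called in all 22 alternatives, with a log2 change of -0.75 and an adjusted p of 0.0441 without CKD 1 and Sham 1.

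Beside Ccl11 stand the values of eosinophils, which it attracts, and of fibroblasts. No eosinophil marker reached a mean of 1 FPKM, Epx (eosinophil peroxidase) was listed at 0 in every library, and the sum over the 6 listed markers ranged from 0.252 to 5.28 FPKM in Sham and from 0.152 to 0.673 FPKM in CKD. The cardiomyocyte marker Myh6 was also listed at 0 in every library of this heart tissue. A 0 alone therefore does not show that a transcript was absent. Ccr3, the receptor of Ccl11, was at 0.134 FPKM or less in every library. Of 11 fibroblast markers, 5 rose (Lum, Col1a1, Col1a2, Pi16 and Mfap5) and 0 fell, with sums of 1208 to 1308 FPKM in Sham and 1315 to 1506 FPKM in CKD. The rest did not pass: Pdgfra (log2 change 0.05), Dcn (0.07), Gsn (0.07), Ddr2 (0.09), Dpt (0.26) and Tcf21 (-0.13). The part of these cells in the fall of Ccl11 was not tested.

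**Figure D2:**
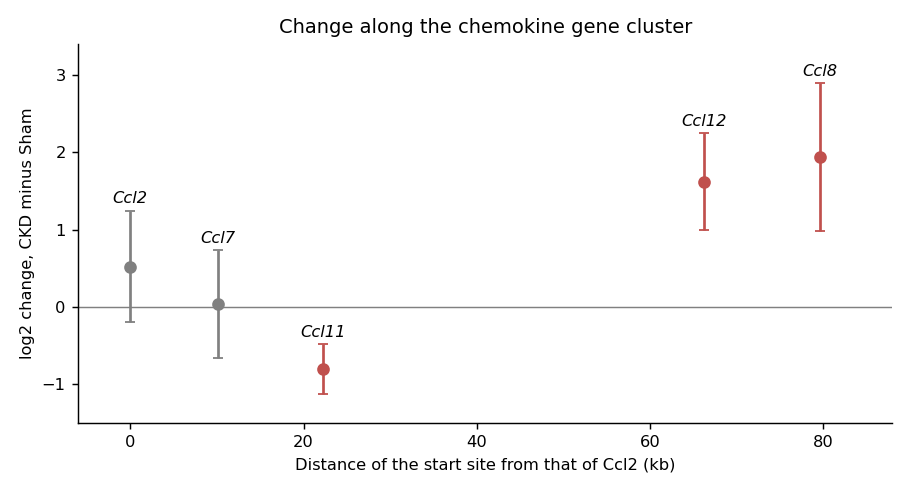
Log2 change, CKD minus Sham (vertical axis), of the 5 cluster genes against the distance of their start site from that of Ccl2 in kb (horizontal axis), with 95% confidence intervals as bars; red marks an adjusted p under 0.05 and grey the rest. Ccl11 is below 0, Ccl12 and Ccl8 at the far end of the cluster are above 1, and the intervals of Ccl2 and Ccl7 include 0.

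Within each ventricle, the balance between these neighbours was measured as the ratio of their values (FPKM + 0.5), and 12 pairs of members were compared between the groups in a two-sided exact permutation test over mice, which cannot give a p below 0.00794. Of the 12 pairs, 6 differed at a p adjusted over the 12 under 0.05. The ratio of Ccl11 to Ccl12 was 6.24, 4.26, 4.71, 3.50 and 7.97 in Sham and 0.596, 0.675, 1.248, 1.75 and 0.891 in CKD. Ccl11 thus exceeded Ccl12 in all 5 Sham ventricles, and in 2 of the 5 CKD ventricles, CKD 3 and CKD 4. The difference in log2 ratio was -2.42 (SE 0.35, exact permutation p = 0.00794, adjusted p = 0.0190). For Ccl11 to Ccl8 the ratio ran from 6.25 to 8.82 in Sham and from 0.415 to 2.73 in CKD. The log2 difference was -2.74 (SE 0.50), with the same exact permutation p and adjusted p. Taken alone, Ccl11 was lower and Ccl12 and Ccl8 were higher in CKD without overlap. The p-values of these ratios were therefore fixed by the single genes and are no further evidence.

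Ccl2 and Ccl7, each overlapping between the groups when taken alone, differed in their ratio. Ccl2 over Ccl7 was 0.979, 0.852, 0.918, 0.814 and 0.836 in Sham and 1.41, 1.22, 1.09, 1.17 and 1.27 in CKD. Ccl2 was thus the lower of the pair in all 5 Sham ventricles and the higher in all 5 CKD ventricles. The log2 difference was 0.48 (SE 0.08, 95% interval 0.30 to 0.66, exact permutation p = 0.00794, adjusted p = 0.0190). The ratios of Ccl2 and of Ccl7 to Ccl12 were lower in CKD by log2 differences of -1.10 (SE 0.29) and -1.58 (SE 0.30), again with no overlap and the same p-values, and that of Ccl2 to Ccl11 was higher by 1.33 (SE 0.43, exact permutation p = 0.0159, adjusted p = 0.0317). For Ccl2 to Ccl11 the adjusted p was 0.0595 without CKD 2 and 0.0635 without Sham 5.

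The other 6 pairs did not pass. Ccl12 over Ccl8 differed by -0.32 on the log2 scale (95% interval -1.33 to 0.69, exact permutation p = 0.540), and Ccl6 over Ccl9 by 0.04 (95% interval -0.33 to 0.40, exact permutation p = 0.817). For Ccl7 to Ccl8, Ccl2 to Ccl8 and Ccl7 to Ccl11 the log2 differences were -1.90, -1.42 and 0.84, with adjusted p-values of 0.0816, 0.0952 and 0.116 by exact permutation. Without CKD 1 and Sham 1, 4 mice per group allow no p below 0.0286, and none of the 12 pairs passed.

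**Figure D3:**
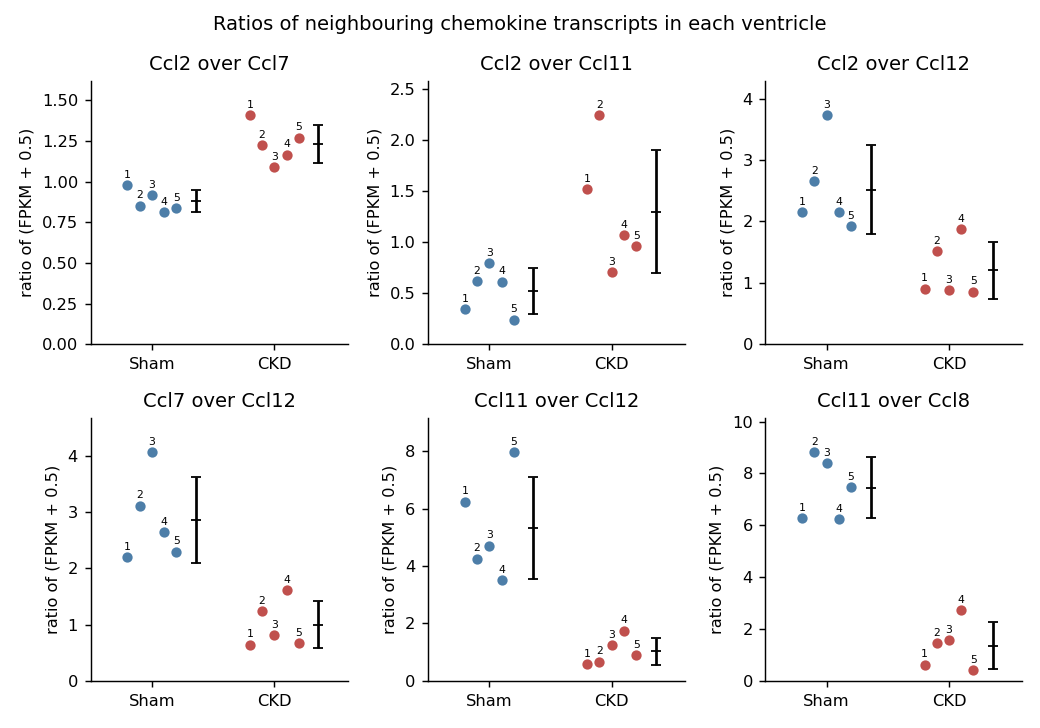
Ratio of (FPKM + 0.5) values (vertical axes, from 0) for the 6 pairs that passed, in 5 Sham (blue) and 5 CKD (red) ventricles numbered by library, with mean and SD as bars. The groups do not overlap for Ccl2 over Ccl7 (highest Sham 0.979, lowest CKD 1.09) or for the pairs with Ccl12 and Ccl8, while for Ccl2 over Ccl11 CKD 3 lies within the Sham range.

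Ccl6 and Ccl9, the Ccr1 ligands of mouse macrophages and other myeloid cells, both rose. Ccl6 was at 11.8, 11.4, 7.63, 11.04 and 8.98 FPKM in Sham and at 23.8, 14.2, 15.6, 16.6 and 29.8 FPKM in CKD. The groups did not overlap, and CKD 5 and CKD 1 stood well above the other 3 CKD libraries. The means were 10.2 ± 1.80 and 20.01 ± 6.63 FPKM (SD, n = 5 each), a 1.87-fold rise (log2 change 0.90, SE 0.19, adjusted p = 0.0203). The adjusted p was 0.0554 without Sham 3 and 0.0521 without CKD 1 and Sham 1.

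Ccl9 held 3.27, 2.65, 2.19, 3.12 and 2.65 FPKM in Sham and 8.26, 5.43, 3.88, 3.55 and 7.47 FPKM in CKD. CKD 1 and CKD 5 were again the highest, and CKD 4, the lowest CKD library, was just above Sham 1, the highest Sham library. The means were 2.78 ± 0.429 and 5.72 ± 2.105 FPKM (SD, n = 5 each), a 1.82-fold rise (log2 change 0.87, SE 0.20, adjusted p = 0.0318). Its adjusted p was above 0.05 without CKD 2 (0.0710), CKD 5 (0.0751), Sham 2 (0.0676), Sham 3 (0.0839), Sham 4 (0.0549) or Sham 5 (0.0515), and without CKD 1 and Sham 1 together (0.0597). With no filter on the mean it was 0.0553.

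Ccr2, the receptor of Ccl2, Ccl7 and Ccl12, was low in every library and higher in CKD. Its values were 0.711, 0.428, 0.416, 0.547 and 0.918 FPKM in Sham and 1.91, 0.904, 1.23, 1.13 and 1.41 FPKM in CKD. All CKD libraries except CKD 2 were above every Sham value, and CKD 2 was below Sham 5 only. The means were 0.604 ± 0.212 and 1.32 ± 0.376 FPKM (SD, n = 5 each), with a log2 change of 0.72 and a two-sided exact permutation p of 0.0159, not adjusted. With no filter on the mean, limma's adjusted p over 17709 genes was 0.0399. Without CKD 1 and Sham 1 the exact permutation p was 0.0571.

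Cx3cr1, just past the filter with a mean of 1.01 FPKM, did not pass the test. It was at 0.627, 0.745, 0.981, 1.04 and 0.769 FPKM in Sham and at 1.69, 1.45, 0.629, 0.762 and 1.43 FPKM in CKD. CKD 1, CKD 2 and CKD 5 were above all Sham libraries, while CKD 3 and CKD 4 lay within the Sham range. The log2 change was 0.31 (SE 0.19, 95% interval -0.11 to 0.72, adjusted p = 0.422). The log2 ratio of Ccr2 to Cx3cr1 differed by 0.41 between the groups (95% interval -0.18 to 1.00, exact permutation p = 0.159).

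By level, Ccl11 led the 9 genes in Sham (20.4 FPKM), followed by Ccl7 (12.2), Ccl2 (10.7) and Ccl6 (10.2), then by Ccl12 (3.76), Ccl9 (2.78) and Ccl8 (2.33), and last by Cx3cr1 (0.833) and Ccr2 (0.604). In that order, neighbours were apart in their 5 values only between Ccl6 and Ccl12 and between Ccl8 and Cx3cr1. In CKD, Ccl6 led (20.01 FPKM), Ccl2 (14.0), Ccl8 (13.5), Ccl12 (12.6), Ccl11 (11.6) and Ccl7 (11.3) followed with overlapping values, and Ccl9 (5.72), Ccr2 (1.32) and Cx3cr1 (1.19) came last. Only the steps from Ccl7 to Ccl9 and from Ccl9 to Ccr2 were free of overlap there. By the mean, Ccl11 thus moved from the first place to the fifth, and Ccl8 from the seventh to the third. The CKD mean of Ccl8 includes 31.7 FPKM in CKD 5. Its CKD median, 9.44 FPKM, was below those of Ccl12 (12.4), Ccl2 (12.3), Ccl11 (11.2) and Ccl7 (10.2). With the overlap among these genes, the places in CKD are not firm. The highest of the 10 libraries was CKD 1 for 4 of the genes (Ccl12, Ccl9, Ccr2 and Cx3cr1) and CKD 5 for 2 (Ccl8 and Ccl6).

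Outside these 9 genes, some chemokine receptors passed the test and no tested ligand did, which does not show that the ligands were unchanged. None of the 5 tested genes among 16 other CC chemokines passed (median log2 change -0.08), nor did any of the 9 tested among 17 CXC, C and CX3C chemokines (median 0.02). Ccl24, another Ccr3 ligand, was at 3.20 ± 0.934 FPKM in Sham and 2.27 ± 0.856 in CKD (SD, n = 5 each, adjusted p = 0.275). Cx3cl1, the ligand of Cx3cr1, was at 4.28 ± 0.678 and 4.12 ± 0.716 FPKM (adjusted p = 0.876) and was named after its values had been seen, as were Ccr3 and Ccr8. Ccr8, the receptor of Ccl8, was at 0.0945 FPKM or less in every library.

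Ccr1, the receptor of Ccl6 and Ccl9, rose from 0.926 ± 0.3503 to 2.17 ± 0.787 FPKM (SD, n = 5 each, log2 change 0.90, SE 0.22, adjusted p = 0.0378). The call was lost without CKD 1 and Sham 1 (adjusted p = 0.0756) and with no filter (0.0584). Leaving out CKD 1, 2, 4 or 5 or Sham 2, 3 or 4 alone also ended it, with an adjusted p of up to 0.0826.

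The atypical receptors bind chemokines without the usual signal and remove them. Ackr4, which takes up Ccl19, Ccl21 and Ccl25, was at 2.47, 2.65, 2.83, 2.74 and 2.77 FPKM in Sham and at 4.39, 5.30, 6.61, 4.95 and 6.47 FPKM in CKD. The 2 groups were clearly separated, and the log2 change was 0.91 (SE 0.11, adjusted p = 0.000954). Ackr2, which removes inflammatory CC chemokines such as Ccl2 and Ccl11, rose from 0.772 ± 0.137 to 1.62 ± 0.327 FPKM (log2 change 0.73, SE 0.13, adjusted p = 0.00778). Of the 5 atypical receptors 4 were tested and these 2 rose. Both calls held in every alternative in which they were tested.

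**Figure D4:**
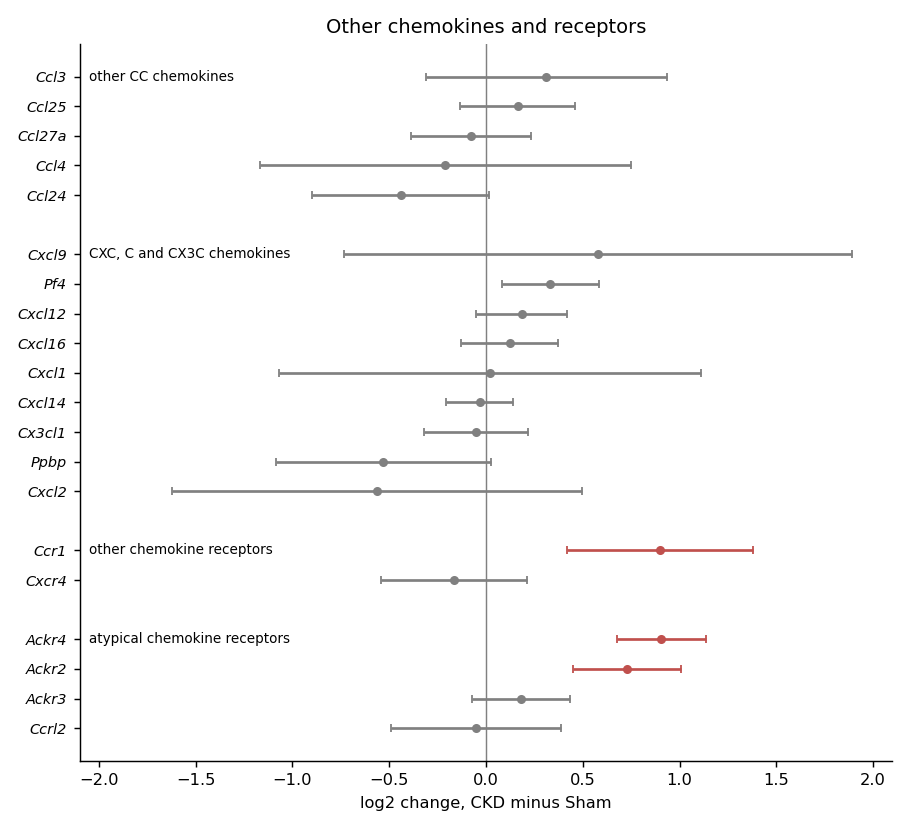
Log2 change, CKD minus Sham (horizontal axis), with 95% confidence intervals for tested chemokines and chemokine receptors outside the 9 genes, grouped by list; red marks an adjusted p under 0.05. The 3 red genes are the receptors Ccr1, Ackr4 and Ackr2, and no tested ligand is red.

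Genes by which monocytes hold on to vessel walls and leave them, and the cytokines that act on monocytes, were also counted. Of 12 tested adhesion genes 2 rose and 1 fell. Itgam, the alpha chain of the myeloid integrin Mac-1, rose from 2.51 ± 0.372 to 3.81 ± 0.387 FPKM (adjusted p = 0.0108), its partner chain Itgb2 also rose (adjusted p = 0.0313), and the junction protein Jam2 fell from 64.2 ± 3.22 to 55.9 ± 2.73 FPKM (adjusted p = 0.0462). Of 7 tested cytokine genes, only Csf1, the macrophage growth factor, passed, with 17.3 ± 3.51 FPKM in Sham and 24.7 ± 3.64 in CKD (adjusted p = 0.0436). The Itgam call held when any single library was left out. Itgb2 lost its call without any single library other than CKD 4 or Sham 5 (adjusted p up to 0.0835), Jam2 other than CKD 1 or Sham 5 (up to 0.112) and Csf1 other than CKD 5 or Sham 5 (up to 0.104).

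Many markers of macrophages rose, as did Ccl12, Ccl8, Ccl6 and Ccl9 but not Ccl2, Ccl7 or Ccl11. Of 18 macrophage markers 17 were tested, and 10 rose and 0 fell (median log2 change 0.57). All 17 had a positive log2 change, but Emr1, Mrc1, Cd163, Mertk, Cd14, Aif1 and Ptprc did not pass. C1qa, a complement subunit made by macrophages, rose from 37.5 to 66.8 FPKM (adjusted p = 0.000813), and Lyve1, a marker of resident macrophages and of lymphatic vessels, from 11.8 to 22.6 FPKM (adjusted p = 0.000813). The summed level of the list was 202 to 241 FPKM in Sham and 305 to 454 FPKM in CKD. CKD 5 and CKD 1 were the highest for the sum, as they were for Ccl12, Ccl8, Ccl6 and Ccl9. CKD 4 was the lowest CKD library for the sum and for Ccl8, Ccl9 and Ccl12, whereas for Ccl6 it was CKD 2 (14.2 FPKM). Without CKD 5 or without Sham 2, 6 of the 17 markers passed. The part of macrophage number in the rise of these chemokines was not tested.

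Of 8 classical monocyte markers 4 were tested, and F13a1 (17.8 to 28.7 FPKM, adjusted p = 0.00711) and Vcan (adjusted p = 0.0119) rose. The list summed to 22.3 to 29.2 FPKM in Sham and 33.0 to 60.8 FPKM in CKD. Its defining gene Ly6c2 was at 1.01 FPKM or less in every library, with 0.581 ± 0.368 FPKM in Sham and 0.480 ± 0.246 in CKD, and Fcnb was listed at 0 in all 10. None of 4 tested neutrophil markers passed, with sums of 7.73 to 30.4 FPKM in Sham and 14.3 to 58.9 FPKM in CKD and Elane at 0. Nor did the single tested T cell marker, the single tested B cell marker, any of 9 endothelial, 8 smooth muscle and pericyte or 11 tested cardiomyocyte markers, or Alas2, the only red cell marker with an entry. Myh6 of the cardiomyocyte list was, like Fcnb and Elane, listed at 0 in all 10 libraries, so these zeros need not mean absence. The median log2 changes of the endothelial, smooth muscle and cardiomyocyte lists were 0.08, 0.19 and -0.03.

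The interferon response genes had a positive log2 change in 19 of 19 tested members (median 0.70), and 3 of them passed. Ifi27l2a rose from 21.9 to 63.2 FPKM (log2 change 1.45, adjusted p = 0.00373), and the antiviral enzymes Oas2 (adjusted p = 0.0317) and Oas1a (adjusted p = 0.0493) also rose. The list summed to 101 to 115 FPKM in Sham and to 145 to 386 FPKM in CKD, with CKD 1 highest, CKD 5 next and CKD 4 lowest. Without CKD 1, 9 of the 19 passed, and without CKD 2, CKD 5, Sham 1, Sham 2 or Sham 3 only 1, Ifi27l2a. Without both CKD 1 and Sham 1, 7 passed, and 13 passed with a model term for those libraries. The part of this response in the rise of Ccl8 and Ccl12 was not tested.

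**Figure D5:**
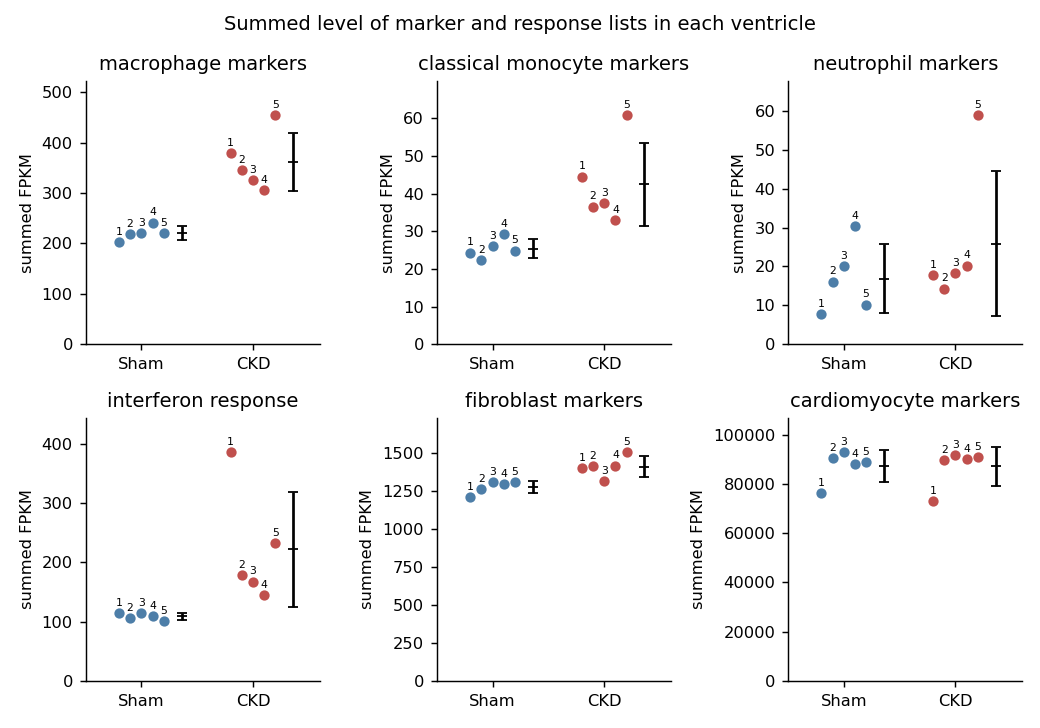
Summed FPKM (vertical axes, from 0) of 6 gene lists in 5 Sham (blue) and 5 CKD (red) ventricles numbered by library, with mean and SD as bars. The macrophage, monocyte, interferon and fibroblast sums do not overlap between the groups, and CKD 1 and CKD 5 are the highest 2 libraries of the first 3 of these. For fibroblasts the gap is small, from 1308 FPKM in Sham to 1315 FPKM in CKD. A sum follows the most abundant genes of its list, such as F13a1 for monocytes, and Dcn and Gsn, which did not pass, for fibroblasts.

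The genes whose pattern over the 10 libraries was most like that of each chemokine were found by the mean absolute difference of the log2 deviations from the gene's own Sham mean, a distance that is 0 for identical patterns. For Ccl8 the nearest 3 were Ifi27l2a (0.37), the complement gene C4b (0.49) and the interferon-induced GTPase Gbp6 (0.50). Ccl12 was nearest to the metallothionein Mt2 (0.28), to Ifi27l2a (0.32) and to Timp1 (0.37), an inhibitor of matrix proteases. Mt2 was at 153 ± 41.1 FPKM in CKD and rose by 1.596 on the log2 scale (adjusted p = 0.00207). Ccl6 was nearest to Ccr1 (0.17), the lysosomal protease Ctss (0.19) and Slfn2 (0.20), and Ccl9 to Oas2 (0.13), Ly6a (0.16) and Ctss (0.17).

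Ccl2 and Ccl7 had other neighbours in pattern. Ccl7 was nearest to Klf4 (0.15), Egr2 (0.18) and Maff (0.18), transcription factor genes that many stimuli induce quickly, and Ccl2 to Mt3 (0.22), Klf4 (0.24) and Rgs16 (0.25). None of these 5 genes passed the test between the groups. Lect1 (0.17) and Kcnv2 (0.20) were among the nearest 3 to Ccl11, and both fell (adjusted p = 0.00346 and 0.00228). Cx3cr1 was nearest to Tes (0.10), A4galt (0.11) and Mgl2 (0.12), none of which passed. The change between the groups enters these distances, so whether a neighbour passed the test follows largely from how it was chosen. The distances describe the same libraries as the tests and carry no p-value.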

How the data were processed

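Left ventricles of 10 mice (5 CKD, 5 Sham, grouped by the surgery label) were profiled with the TruSeq mRNA protocol in single reads of 100 bases, per the labels' protocols. The authors deposited 1 FPKM value per gene and library. The submitters' processing notes list STAR 2.4.0f1, Cufflinks 2.1.1 as well as Cuffdiff 2.1.1, with the builds mm10 and hg19 and no role for either. Strand use and the handling of reads shared between genes are not given in the sources used here. Read numbers are not kept in FPKM. Steps between low values gave a relative depth of 0.906 to 1.15 times that of Sham 2 for 8 libraries, but none for CKD 1 and Sham 1.

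Values were analysed as log2(FPKM + 0.5) for the 11651 genes with a mean of at least 1 FPKM over all 10 libraries, so folds understate the change of low genes. CKD was compared with Sham in limma 3.58.1 (R 4.3.3, trended eBayes, two-sided, Benjamini-Hochberg over all tested genes, threshold 0.05). Pair ratios and Ccr2 were tested by exact permutation of mice (Python 3.11.15, scipy 1.17.1). On simulated data with 11651 genes the test recovered 34% of 50 genes changed 1.25-fold, 74% at 1.5-fold and 98% at 2-fold and at 3-fold, with 9 false among 161 calls. The simulated noise was normal, independent between genes and without a shift for CKD 1 and Sham 1. These shares therefore need not hold for the 9 genes, and a gene that did not pass is not shown to be unchanged. The 9 genes, the 7 pathway and 11 marker lists and the tests were chosen with earlier results of these data known. All 9 genes are named, and of each list up to 4 that passed, by p, or otherwise up to 3 by level. For each gene with a mean of at least 1 FPKM, the 3 genes most alike in pattern are named. The 22 alternatives varied the pseudocount, the filter, the scaling, the model of the spread and which libraries entered. Sequences are from RefSeq, GRCm38.p6, and transcripts for the similarity check from GENCODE M21. Results for 2 genes that the naming rule covers are not reported here.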

Additional observations from a re-analysis of the deposited data

Results flagged for a closer look

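In 54 groups of 5 values (the 9 genes and 18 lists, each in Sham and CKD), the highest or lowest library was compared with the other 4 by Dixon's criterion, which marks about 1 in 20 groups by chance. No group of the 9 genes was marked, and 5 list sums were. The neutrophil markers summed to 58.9 FPKM in CKD 5 against 14.3 to 20.2 FPKM in the other CKD libraries. CKD 5 was also the highest library for Ccl8 and Ccl6. The eosinophil markers summed to 5.28 FPKM in Sham 5 against 0.252 to 0.470 FPKM in the other Sham libraries, of which Alox15 gave 5.03 FPKM. Sham 5 was the lowest library for Ccl2, Ccl7, Ccl8 and Ccl12. In CKD 1 the endothelial markers summed to 335 FPKM against 386 to 405 FPKM in the other CKD libraries. In the same library the cardiomyocyte markers summed to 73042 FPKM against 89790 to 91787 FPKM. Sham 1, though not marked, was likewise the lowest Sham library for both sums. Its endothelial sum was 339 against 359 to 382 FPKM, and its cardiomyocyte sum 76205 against 88002 to 92937 FPKM. CKD 1 and Sham 1 are the libraries whose scale per gene differed from the rest. CKD 1 was the highest library for Ccl12, Ccl9, Ccr2 and Cx3cr1. Alas2, the only red cell marker with an entry, was at 29.8 FPKM in CKD 5 against 12.4 to 17.2 FPKM in the other CKD libraries. The part of these libraries' makeup in the chemokine values was not tested.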

How the results depend on the processing

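Of 747 values of 38 tested results under the alternatives, 636 kept their direction and their side of the threshold, 96 lost the threshold, 0 gained it and 15 reversed. Ccl12 and Ccl11 kept their calls in all 22. The number of members called higher, 4, was 1 without CKD 1 and Sham 1 and ranged from 1 (without Sham 3) to 4 with single libraries left out, with 2 without Sham 2 or Sham 4. Ccl8 also missed the threshold with robust moderation (adjusted p = 0.0671), and Ccl9 was not tested at a mean of at least 5 FPKM. The number of pairs called was 0 without CKD 1 and Sham 1. Over all genes, 573 were higher and 479 lower with a term for those libraries, 400 were lower with array weights, and leaving out single libraries gave 201 to 384 higher and 131 to 290 lower. Chemokines and receptors outside the members called higher, 4, were 2 with no filter, 2 without CKD 1 and Sham 1, and 2 to 4 with single libraries left out. At a mean of at least 5 FPKM the number was 0, because none of the 4 was tested there. In the pathway and marker lists together, 27 genes higher became 17 to 28 with single libraries left out. They became 16 at a mean of at least 5 FPKM, where some of the 27 were not tested. The 1 lower became 0 with equal totals or no trend, 2 without CKD 1 and Sham 1, 3 with the term, and 0 to 1 with single libraries left out. The log2 change of Ccl7 was -0.20 with array weights, -0.11 without CKD 1 and Sham 1, and -0.25 to 0.24 with single libraries left out. That of Ccl27a was 0.052 without CKD 1 and Sham 1 and -0.15 to 0.036 with single libraries left out, where Ccl4 ran from -0.55 to 0.036, Cxcl14 from -0.087 to 0.029, Ccl12 over Ccl8 from -0.54 to 0.0095 and Ccl6 over Ccl9 from -0.051 to 0.14. At a pseudocount of 0.1, Ccl6 over Ccl9 was -0.023. The cause of these shifts was not tested. No paired analysis was possible because the labels give no replicate numbers and mice were numbered in accession order only. How many reads lie behind each value is unknown, which limits Ccr2 and Cx3cr1 most, since they lie near 1 FPKM.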
